A study of Rattus norvegicus with 125 samples.

Results

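The comparison described here is brain 24 h after phosphine: 4 arrays of rats that had breathed the gas (rats 70, 85, 91 and 149) against 4 arrays of rats that had breathed air (rats 83, 84, 89 and 145). Arrays were chosen by their titles, which gave 8 of the 125 arrays of the series, and all 19069 probe sets with 1 gene symbol (of 31139) were read as 13439 genes, each through its brightest probe set in brain. All animals were adult male Sprague-Dawley rats, an outbred laboratory stock, and each array came from a separate rat. The phosphine group (PH3) breathed 387 ppm of the gas in a whole-body chamber for 40 min (15480 ppm×min as concentration times duration), and the Air group 0 ppm for the same time. All were killed with ketamine and xylazine. RNA was extracted from frozen, powdered brain and labelled from its 3' end, so each value mixes every region that was in the powder. In such a mixture fewer cells of a type and less RNA per cell cannot be told apart.

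Phosphine is a fumigant gas that blocks cytochrome c oxidase, the last enzyme of the mitochondrial respiratory chain, and it raises reactive oxygen species. The brain depends on that chain for nearly all of its ATP. Hox genes encode homeodomain transcription factors that mark the hindbrain and spinal cord and are largely silent in forebrain. Glucocorticoids, the hormones of the adrenal stress response, act through a nuclear receptor that raises a set of genes in neurons and glia within hours.

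Levels are given on the log2 scale of RMA, so that a difference of 1 is a doubling. Genes passed the threshold where limma, a linear model fitted over all 32 brain arrays, gave an adjusted p under 0.05 over all 13439 genes. By that rule 4 genes (0.0298%) rose and 0 fell over all 8 arrays, and 0 genes (0%) passed once Air rats 89 and 145 were left out. At an unadjusted p under 0.05, 669 genes were higher (4.98%) and 970 lower (7.22%) over all 8 arrays. Without the 2 Air rats, 211 were higher (1.57%) and 106 lower (0.789%). That is 317 genes, fewer than the 672 expected by chance. With only the 24 h brain arrays in the fit, 679 genes met that mark over all 8 arrays. In both of the first fits 172 genes met it in the same direction, but these fits share all 4 PH3 arrays and 2 Air arrays. The PH3 arrays lay above every Air array for 215 genes (1.6%) and below every Air array for 128 (0.952%).

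Some arrays stood apart before any comparison. Air rats 89 and 145 had next to no cerebellar signal: Gabra6, the GABA receptor subunit of cerebellar granule cells, read 3.45 and 3.33 there, against 10.86 to 12.22 on the other arrays at 24 h, and Pcp2, a Purkinje cell protein, read 3.40 and 3.50 against 11.10 to 12.27. PH3 rat 91 was extreme the other way. It was lowest for the striatal dopamine receptor Drd1 at 4.72, against 7.35 to 8.89 in the other PH3 rats, and highest for cerebellar genes. PH3 rat 70 had little choroid plexus, the tissue that secretes cerebrospinal fluid: its carrier protein Ttr read 9.40 on that array and 13.01 to 13.75 on the other 7. PH3 rat 85 and Air rat 84 carried liver transcripts, with Alb, serum albumin, at 12.97 and 13.35 against 6.69 to 11.40 elsewhere. The neuron list itself was even over the 8 arrays, at 10.24 to 10.40, and the beta-actin signal at the 3' end exceeded that at the 5' end by 3.21 to 4.35.

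**Figure D1:**
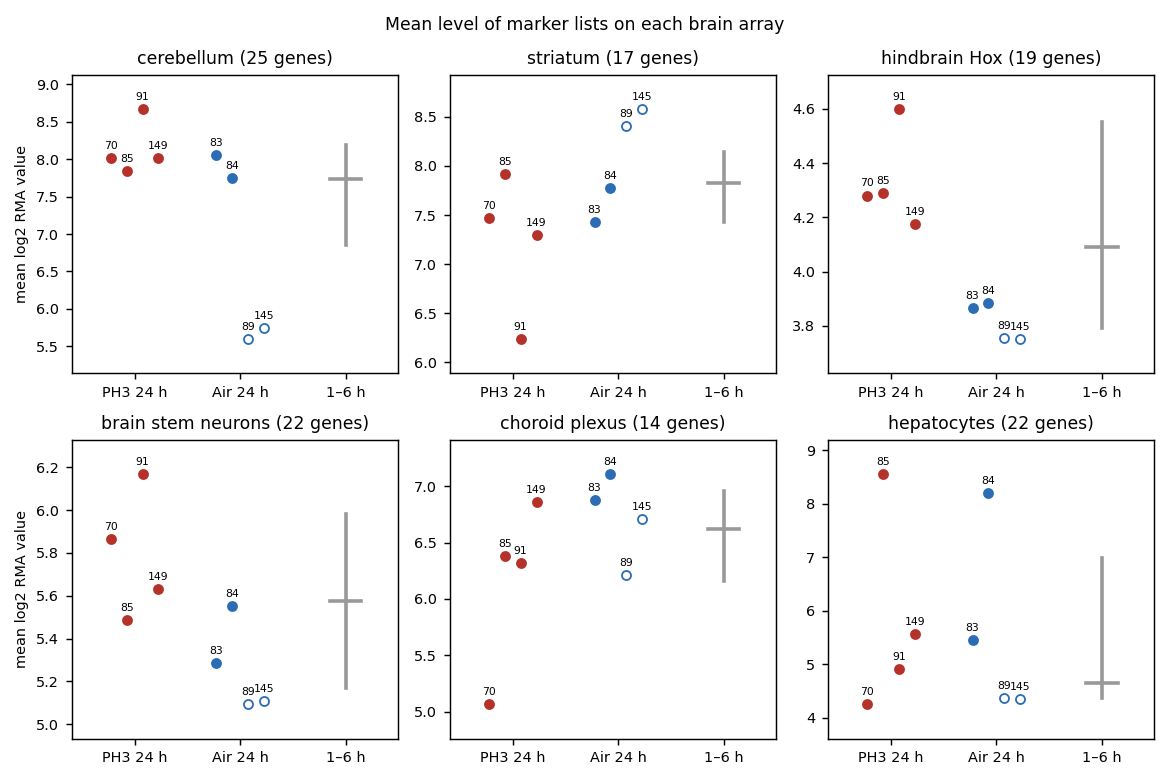
Mean log2 RMA level of 6 marker lists (vertical axes, each with its own range that does not start at 0) on the PH3 arrays (red) and Air arrays (blue, rats 89 and 145 open) at 24 h, each point labelled with its rat; the grey bar spans the 24 brain arrays of 1, 3 and 6 h, with their median as a tick. Air rats 89 and 145 sat at 5.60 and 5.74 for cerebellum, PH3 rat 70 at 5.06 for choroid plexus, and PH3 rat 85 and Air rat 84 at 8.55 and 8.21 for hepatocytes.

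The genes that rose were Tob2, Ret, Hoxb5 and Hoxc4. Promoter sequences, the 250 bases before the RefSeq start on the rat build GRCr8, are printed because these genes carry the comparison. Ret, Tob2 and Hoxc4 matched an entry by gene ID, and Hoxb5 did not. Capitals mark the only match to any of 5 motifs searched on both strands. These were the GC box GGGCGG, the TATA box TATAAA, the glucocorticoid half-site TGTTCT, the retinoid half-site AGGTCA and the homeodomain core TAATTA. With 1 match in all, no matches overlapped.
Ret (chr4:153040557-153040806, minus strand): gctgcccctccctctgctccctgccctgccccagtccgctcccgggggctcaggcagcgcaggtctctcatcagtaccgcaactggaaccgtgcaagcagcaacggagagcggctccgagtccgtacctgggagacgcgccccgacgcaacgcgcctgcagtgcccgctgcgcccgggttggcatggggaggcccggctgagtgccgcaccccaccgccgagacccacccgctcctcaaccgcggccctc
Tob2 (chr7:115251564-115251813, minus strand): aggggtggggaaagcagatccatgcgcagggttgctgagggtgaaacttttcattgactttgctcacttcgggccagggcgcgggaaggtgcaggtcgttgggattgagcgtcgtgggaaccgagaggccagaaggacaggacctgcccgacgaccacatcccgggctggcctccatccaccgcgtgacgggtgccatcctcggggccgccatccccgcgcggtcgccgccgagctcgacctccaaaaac
Hoxc4 (chr7:136048809-136049058, plus strand): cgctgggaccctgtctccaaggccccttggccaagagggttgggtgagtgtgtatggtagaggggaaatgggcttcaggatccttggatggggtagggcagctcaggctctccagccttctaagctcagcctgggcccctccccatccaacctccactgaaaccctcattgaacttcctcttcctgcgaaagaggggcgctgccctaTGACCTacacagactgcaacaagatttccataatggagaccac
The Ret and Tob2 windows held 25 and 23 CpG dinucleotides and the Hoxc4 window 3, where the median of 27457 rat promoters was 6 and 27.9% held at least 15. The capitals in Hoxc4 are a retinoid half-site on the opposite strand, which 13.7% of all promoters held. The GC box was found in 32.4% of all promoters, the TATA box in 13.1%, the glucocorticoid half-site in 17.1% and the homeodomain core in 4.94%, and these 3 windows held none of them.

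Tob2 encodes an antiproliferative protein that recruits the CCR4-NOT deadenylase to messenger RNAs. It read 8.70, 8.23, 8.85 and 8.37 in PH3 rats 70, 85, 91 and 149, and 7.88, 7.61, 7.49 and 7.68 in Air rats 83, 84, 89 and 145. Every PH3 array was above every Air array, and Air rats 89 and 145 were not apart from the other Air rats. Tob2 rose by 0.87 ± 0.15 (SE, n = 4 and 4; adjusted p = 0.0390), which is 1.83-fold. Without the 2 Air rats the difference was 0.79 ± 0.19 (adjusted p = 0.778), and with the levels of the cerebellum and striatum lists as covariates it was 0.72.

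Ret is the receptor tyrosine kinase of the GDNF family, which in the central nervous system is carried by motor neurons and midbrain dopamine neurons, among others. The PH3 arrays read 8.18, 7.58, 8.45 and 7.63 in the same order and the Air arrays 7.15, 7.04, 6.09 and 5.66. The groups did not overlap, and Air rats 89 and 145 were the lowest. The rise was 1.48 ± 0.27 over all 8 arrays (adjusted p = 0.0390), 0.86 ± 0.27 without those rats and 0.75 with the regional covariates. The 2 dimmer probe sets of Ret were higher by 0.78 and 0.30, short of the threshold.

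Hoxb5 and Hoxc4 are Hox genes of the caudal hindbrain and cord. Hoxb5 read 5.98, 5.55, 6.39 and 5.41 in the PH3 rats and 4.59, 4.17, 4.07 and 3.97 in the Air rats. Hoxc4 read 5.15, 4.86, 6.03 and 5.24 against 4.01, 4.29, 3.66 and 3.85. For both genes every PH3 array was above every Air array, with PH3 rat 91 highest. Hoxb5 rose by 1.63 ± 0.31 (3.10-fold) and Hoxc4 by 1.36 ± 0.26 (2.58-fold), both at an adjusted p of 0.0390. The differences were 1.45 and 1.17 without Air rats 89 and 145, and 1.27 and 0.93 without these and PH3 rat 91. A second probe set of Hoxc4, close to the dimmest signals at a mean of 3.33, was higher by 0.06.

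**Figure D2:**
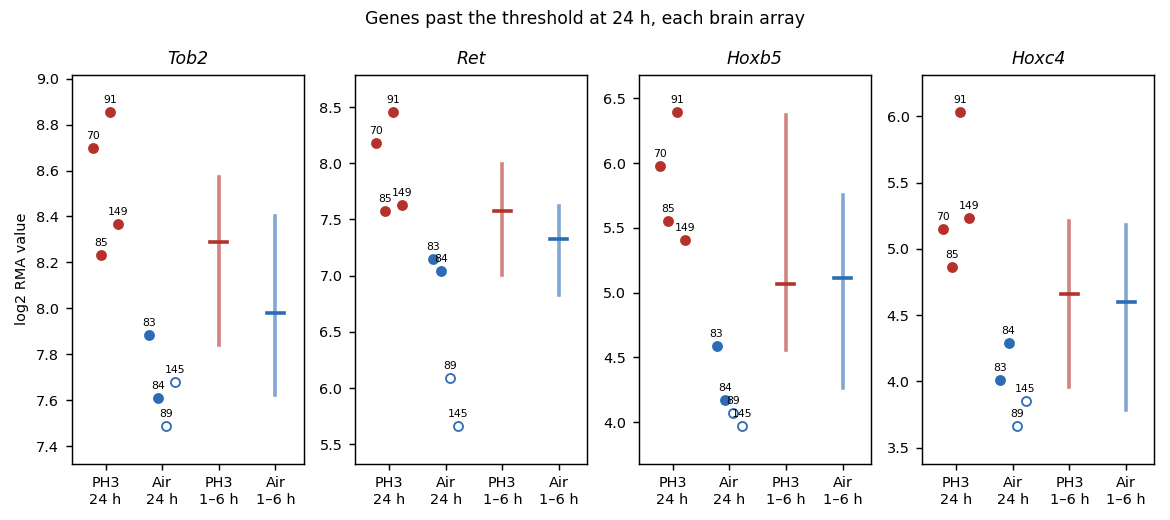
Log2 RMA values (vertical axes, not starting at 0) of the 4 genes past the threshold on each PH3 (red) and Air (blue; rats 89 and 145 open) brain array at 24 h, labelled by rat, beside the range and median of the 12 PH3 and 12 Air arrays of 1, 3 and 6 h. The groups at 24 h do not overlap, while the bars of the earlier times do: Hoxb5 ran from 4.26 to 5.75 on the earlier Air arrays and from 4.56 to 6.37 on the earlier PH3 arrays.

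The earlier arrays place these levels. The Air arrays of 24 h were low for Hoxb5: 3 of the 4 were under the lowest earlier Air array (4.26), and the 4 PH3 arrays were within the range of the earlier PH3 arrays but for rat 91 at 6.39. Hoxc4 on earlier Air arrays ran from 3.78 to 5.18, and Ret from 6.83 to 7.62. Against the 14 Air arrays of all times without rats 89 and 145, the PH3 arrays of 24 h were higher by 0.89 for Hoxb5, 0.82 for Hoxc4, 0.70 for Ret and 0.59 for Tob2, and 0 genes passed.

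Most Hox genes were higher after phosphine at 24 h. Of 27 listed, 19 were measured, 15 of these had a positive difference (44.4% of all genes had), and Hoxb5 and Hoxc4 alone passed the threshold. At an unadjusted p under 0.05, 10 were higher and 0 lower (background 4.98% and 7.22%), and for 9 the groups did not overlap (background 1.6%). Their median difference was 0.38 against -0.02 over all genes. Hoxa5 showed the widest gap: the PH3 arrays read 6.45, 6.03, 7.47 and 6.17 and the Air arrays 4.57, 5.19, 3.51 and 3.71. The groups were separate, Air rats 89 and 145 were lowest, and the difference of 2.28 ± 0.54 had an adjusted p of 0.132. Hoxb2, a gene of the rostral hindbrain, read 5.04, 4.92, 5.27 and 4.41 against 3.97, 4.08, 3.77 and 3.95, a difference of 0.97 ± 0.21. Here rats 89 and 145 were close to the other Air rats. Hoxb3 and Hoxb4 were higher by 0.58 and 0.61, and Hoxb6 by 0.75 with rat 91 far above the other PH3 rats. Genes of the more caudal trunk, such as Hoxd9 (lower by 0.16) and Hoxb7 (higher by 0.16), lay near the dimmest signals on all arrays.

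Leaving out the 2 Air rats lowered the Hox median to 0.29, with 6 genes higher and 0 lower at an unadjusted p under 0.05 (background 1.57% and 0.789%). With the regional covariates it was 0.27, with 7 higher (background 3.89%), beside 0.05 over all genes. With the 2 Air rats and PH3 rat 91 left out it was 0.22, with 5 higher (background 1.37%), beside 0.04 over all genes. Against the 14 Air arrays of all times it was 0.19, with 5 higher (background 4.2%), beside -0.01 over all genes. The mean Hox level was 4.28, 4.29, 4.60 and 4.17 in PH3 rats 70, 85, 91 and 149 and 3.86, 3.88, 3.76 and 3.75 in the Air rats, and the 24 earlier arrays ran from 3.79 to 4.55. The PH3 arrays were thus all above the Air arrays of 24 h, and both groups lay at or near the range of the earlier arrays. The part of the amount of caudal tissue in these differences was not tested, and the covariates do not measure it.

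Cerebellar genes were higher over all 8 arrays, and by less once Air rats 89 and 145 were left out. Those 2 rats had been set aside for their low cerebellar and brain stem genes. Much of this change between the fits was therefore fixed by that choice. Of the 25 cerebellar genes measured, 19 were higher and 0 lower over all 8 arrays, with a median of 0.83, while 3 were higher and 0 lower without rats 89 and 145, with a median of 0.26 (backgrounds 4.98% and 1.57% higher). Of the 25, 21 still had a positive difference in that fit (55.7% of all genes had), of at most 0.87. With 1 more rat left out the second median was 0.08 without Air rat 84, 0.02 without PH3 rat 91 and 0.41 without Air rat 83. Gabra6 was higher by 4.09 over all 8 arrays and by 0.07 without them. En2, a transcription factor of midbrain and cerebellum, was higher by 2.85 and then by 0.38, and Fat2, a cadherin of granule cells, by 2.89 and then by 0.26. No cerebellar gene passed the threshold in either fit.

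Striatal genes were lower over all 8 arrays. Of 17 measured, 15 were lower and 0 higher over all 8 arrays (background 7.22% and 4.98%), with a median of -0.71. Without the 2 Air rats 0 were lower or higher at an unadjusted p under 0.05 (background 0.789% and 1.57%), with a median of -0.31. Leaving out PH3 rat 91 took these medians to -0.44 and -0.09. The second was -0.13 without Air rat 84, -0.52 with Air rat 83 left out, and -0.53 where PH3 rat 85 was, with 7 lower. Drd1 read 8.29, 8.89, 4.72 and 7.35 in the PH3 rats and 8.14, 8.55, 9.35 and 9.60 in the Air rats. PH3 rat 91 and Air rats 89 and 145 were the outer arrays, and the difference went from -1.60 over all 8 to -0.17 with these 3 left out. Pdyn, the precursor of dynorphin, went from -1.53 to -0.25 and the adenosine receptor Adora2a from -1.35 to -0.17. Of 19 cortical genes 11 were lower over all 8 arrays (background 7.22%) and 2 without the 2 Air rats (background 0.789%). Without PH3 rat 91, 4 of the cortical genes were lower. The cortical projection neuron factors Fezf2 and Bcl11b, lower by 1.44 and 1.43 over all 8 arrays, were lower by 0.12 and 0.05 with the 3 arrays left out. Of 16 interneuron and peptide genes 10 were lower and 3 higher over all 8 arrays (background 7.22% and 4.98%). The higher ones included Calb2 and Pvalb (by 1.18 and 1.00), calcium buffers that cerebellar neurons also hold. Without PH3 rat 91, 5 were lower, and without the 2 Air rats 0 differed in either direction at that mark.

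**Figure D3:**
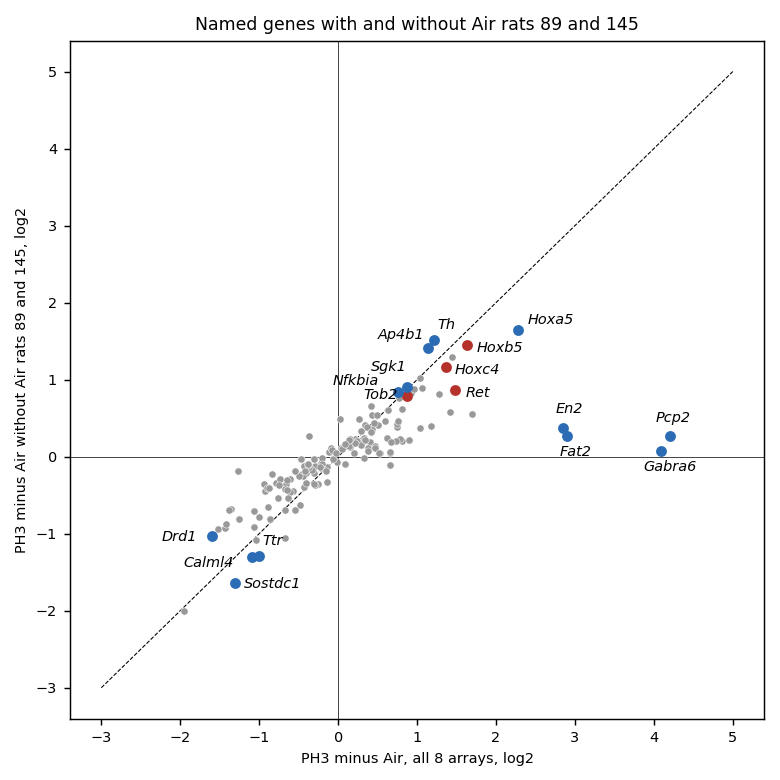
Difference of PH3 from Air (log2) for the 155 genes chosen by the naming rule over all 8 arrays (horizontal axis) and without Air rats 89 and 145 (vertical axis). The dashed line marks equal values, red points passed the threshold over all 8 arrays, blue points are other labelled genes, and grey points are the rest. Cerebellar genes such as Gabra6 fall from 4.09 to 0.07, and Ret from 1.48 to 0.86, while Hoxb5, Hoxc4 and Tob2 stay near the line at 1.45, 1.17 and 0.79.

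Brain stem neuron genes were mixed, and they too had served to set Air rats 89 and 145 aside. Of 22 measured, 10 were higher and 1 lower over all 8 arrays (background 4.98% and 7.22%), with a median of 0.44. Without rats 89 and 145, 2 were higher (background 1.57%), with a median of 0.41. The second median was 0.19 with Air rat 83 left out and 0.18 with PH3 rat 91 left out, and the first 0.26 without PH3 rat 91. Those 2 were Th, the first enzyme of catecholamine synthesis, and Slc18a2, the vesicular monoamine transporter. Th read 8.41, 6.47, 6.66 and 5.88 in the PH3 rats and 5.23, 5.44, 6.57 and 5.34 in the Air rats. Rat 70 was highest, Air rat 89 overlapped the PH3 group, and the difference was 1.21 over all 8 arrays, 1.52 without the 2 Air rats and 1.86 with the regional covariates. Slc18a2 was higher by 1.44 and 1.29 in the first pair of fits. The serotonin transporter Slc6a4, in contrast, was higher by 0.55 and then by 0.07. Prph, an intermediate filament of motor and sensory neurons, was higher by 1.28 and then 0.81. Nefh, the heavy neurofilament of thick axons, was higher by 0.72 and then 0.45, and Spp1, osteopontin, fell back from 1.69 to 0.55. No gene of this list passed. Glrb is the beta subunit of glycine receptors, the inhibitory channels of brain stem and cord. At its brightest probe set it read 10.36, 10.23, 10.36 and 10.67 against 9.91, 10.04, 9.92 and 9.93. The groups were separate, and the difference was 0.46 over all 8 arrays and 0.43 without the 2 Air rats, with Glra1 at 0.64 and 0.60. Dimmer probe sets of Glrb differed by 0.21 and -0.002 over all 8 arrays, and by -0.10 and -0.08 without the 2 Air rats. The dimmer probe set of Glra1 differed by 0.02 and then -0.005.

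Choroid plexus genes were lower, with PH3 rat 70 far below the other arrays. Of 14 measured, 5 were lower over all 8 arrays (background 7.22%) and 7 without the 2 Air rats (background 0.789%). The medians were -0.55 and -0.67. Sostdc1, a secreted Wnt and BMP antagonist, read 5.02, 8.29, 7.65 and 8.68 in the PH3 rats and 8.84, 9.27, 7.79 and 8.97 in the Air rats, and the folate receptor Folr1 4.38, 6.52, 6.15 and 7.13 against 6.66, 7.60, 6.71 and 7.36. Rat 70 was lowest for both and the remaining arrays overlapped. Without Air rat 84 the first median was -0.30, with 2 lower. Leaving rat 70 out brought the list to 1 gene lower and a median of -0.14 (2 and -0.37 without the 2 Air rats as well), and the difference of Ttr from -1.01 to 0.00. Calml4, a calmodulin-like protein, was lower by 1.09 over all 8 arrays and by 1.30 without the 2 Air rats, also with rat 70 lowest at 4.23. Hepatocyte genes followed Air rat 84 and PH3 rat 85: their median was 0.22 over all 8 arrays, 1.21 without Air rat 84, -0.72 without PH3 rat 85 and -1.17 without Air rats 89 and 145, where 2 of 22 were positive. With 1 more rat left out it ran from -2.89 (without Air rat 83) to 0.32 (without Air rat 84).

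A set of 24 of the 13439 genes had an unadjusted p under 0.01 in both fits and separate groups, 19 higher and 5 lower. Clip1, a protein that links growing microtubule ends to membranes, came next after the 4 that passed. It read 8.13, 8.21, 8.44 and 8.32 in the PH3 rats and 7.44, 7.45, 6.95 and 7.54 in the Air rats, with every Air array low. The difference was 0.93 ± 0.18 (adjusted p = 0.0518) and 0.83 without the 2 Air rats. The earlier Air arrays ran from 7.58 to 8.88, so that all 4 Air arrays of 24 h were below them, and against the 14 Air arrays the difference was 0.28. A dimmer probe set of Clip1 was higher by 0.55 over all 8 arrays and lower by 0.11 without the 2 Air rats.

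Others of this set were of similar size in both fits and smaller against the 14 Air arrays of all times. There Ap4b1 was higher by 0.70, Kcnab3 by 0.52, Rdh5 by 0.66, Mthfd1 by 0.18 and Wnk1 by 0.27. Ap4b1, a subunit of the AP-4 sorting complex, read 7.57, 6.97, 7.90 and 6.95 against 6.06, 5.81, 6.30 and 6.65, a difference of 1.14 that was 1.41 without the 2 Air rats. Kcnab3, a beta subunit of voltage-gated potassium channels, was higher by 1.03 and 1.02, and Rdh5, a retinol dehydrogenase, by 1.06 and 0.89. Mthfd1, a folate enzyme, had the smallest p without the 2 Air rats: it read 8.55, 8.45, 8.39 and 8.40 against 7.71, 8.10, 8.05 and 8.24. The PH3 arrays lay close together above all Air arrays, Air rat 83 was lowest, and the difference was 0.42 over all 8 arrays and 0.55 without them (adjusted p = 0.778). Wnk1, a kinase that sets chloride transport, read 10.16, 9.96, 10.23 and 10.15 against 9.63, 9.91, 9.78 and 9.48 at its brightest probe set, a difference of 0.42 over all 8 arrays. Its other 4 probe sets differed by -0.02 to 0.12.

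Lower genes in this set were fewer, with smaller differences. Zmat2, a zinc finger protein of the spliceosome, read 9.49, 9.82, 9.34 and 9.79 in the PH3 rats and 10.03, 9.97, 10.13 and 10.05 in the Air rats. The groups were separate, and the difference was -0.44 over all 8 arrays and -0.39 without the 2 Air rats. Gpr149, an orphan receptor, was lower by 0.67 and 0.69. Crygs and Micalcl, with levels of at most 4.13 on the 8 arrays, were lower by 0.30 and 0.26 over all 8 arrays. The interleukin Il1b, at 3.74 to 3.84 in the PH3 rats and 3.89 to 4.22 in the Air rats, was lower by 0.29 and 0.37 near the dimmest signals. The class I histocompatibility gene RT1-CE12, a member of a family of near-identical copies that share probes, was lower by 0.67 and 1.06 but is outside this set: PH3 rat 85 at 7.34 lay above Air rats 84 and 89 at 7.32 and 6.95, and Air rat 83 was highest at 8.56. None of these passed.

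Among 29 measured glucocorticoid targets, 8 were higher and 0 lower over all 8 arrays (background 4.98% and 7.22%). Without rats 89 and 145, 3 were higher (background 1.57%). The median was 0.11 and 0.18, beside -0.02 and 0.02 for all genes, and none of the targets passed. Without Air rat 83 these medians were 0.05 and 0.08, and the second ran to 0.26 without Air rat 84. Against the 14 Air arrays of all times the median was 0.06, with 6 higher and 2 lower (background 4.2% and 5.02%). The mean level of the list was 7.56 in the PH3 rats and 7.36 in the Air rats, where the median of the 24 earlier arrays was 7.65. Nfkbia, the inhibitor of NF-kappa-B, read 8.41, 8.49, 8.59 and 8.57 in the PH3 rats and 7.51, 7.84, 7.86 and 7.82 in the Air rats. The PH3 arrays lay close together and above all Air arrays, and rats 89 and 145 were level with Air rat 84. The difference was 0.76 ± 0.18 (1.69-fold, adjusted p = 0.132), 0.84 without the 2 Air rats and 0.98 with the regional covariates. On the earlier Air arrays Nfkbia ran from 7.50 to 8.74, a range that held every PH3 array of 24 h. Against the 14 Air arrays its difference was 0.43.

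Sgk1, a kinase that regulates ion channels, read 10.03, 9.27, 9.52 and 9.75 against 8.50, 8.98, 8.78 and 8.80, again with separate groups. Its difference was 0.88 ± 0.27 over all 8 arrays and 0.90 without the 2 Air rats. Gpd1, the cytosolic glycerol phosphate dehydrogenase, read 9.08, 8.74, 9.32 and 9.10 against 8.08, 8.50, 8.24 and 8.36, a difference of 0.77 ± 0.21 and 0.77. The earlier Air arrays ran from 8.81 to 9.93 for Gpd1, above every Air array of 24 h, and against the 14 Air arrays the difference was -0.18. Pdk4, the kinase that shuts off pyruvate dehydrogenase, was higher by 0.80 with Air rat 84 among the PH3 values. The transcription factor Bcl6 was higher by 0.55, Tsc22d3, a mediator of glucocorticoid anti-inflammatory action, by 0.34, Errfi1 by 0.41 and Ddit4, an inhibitor of mTOR, by 0.66.

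Other hormone targets were not higher at 24 h. Fkbp5, the receptor's own co-chaperone, read 6.78, 6.88, 6.06 and 6.37 in the PH3 rats and 6.56, 6.54, 6.97 and 7.23 in the Air rats, and the groups overlapped (-0.30 ± 0.28). The metallothionein Mt2A read 8.93, 9.49, 9.10 and 9.65 against 9.45, 9.32, 10.02 and 9.89, a difference of -0.38 ± 0.23 that was -0.09 without the 2 Air rats. The cell cycle inhibitor Cdkn1a differed by -0.11 ± 0.29 and the clock gene Per1 by -0.05 ± 0.20.

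The difference at 24 h was also set against the mean difference at 1, 3 and 6 h. For this contrast 0 genes passed (0%) in limma, with 1187 of 13439 genes at an unadjusted p under 0.05. Without Air rats 89 and 145, 0 genes passed and 384 met that mark, fewer than the 672 expected by chance. The larger count thus depended on these 2 Air rats. With them kept, as in the contrasts below, Mt2A and Wnk1 had the smallest adjusted p, 0.0874. Mt2A was higher after phosphine by 0.79, 0.92 and 1.49 at 1, 3 and 6 h, so its difference at 24 h was lower than the earlier mean by 1.45 ± 0.26. Fkbp5 was higher by 0.79, 0.76 and 0.79, and lower at 24 h than that mean by 1.08 ± 0.32 (adjusted p = 0.378). Leaving out Air rats 89 and 145 took the difference at 24 h from -0.38 to -0.09 for Mt2A and from -0.30 to -0.03 for Fkbp5. Nfkbia went from 0.82 and 0.69 at 1 and 3 h to 0.07 at 6 h and 0.76 at 24 h, and Sgk1 from 0.85 and 0.60 to 0.21 and 0.88. Their differences at 24 h exceeded the earlier mean by 0.23 ± 0.21 and 0.33 ± 0.31, short of the threshold (adjusted p = 0.718 and 0.727). Hoxb5 differed by 0.17, -0.23 and 0.32 at the earlier times, and its difference at 24 h exceeded their mean by 1.55 ± 0.35 (adjusted p = 0.240). The same contrast was 1.35 for Hoxc4, 1.23 for Ret and 0.64 for Tob2.

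**Figure D4:**
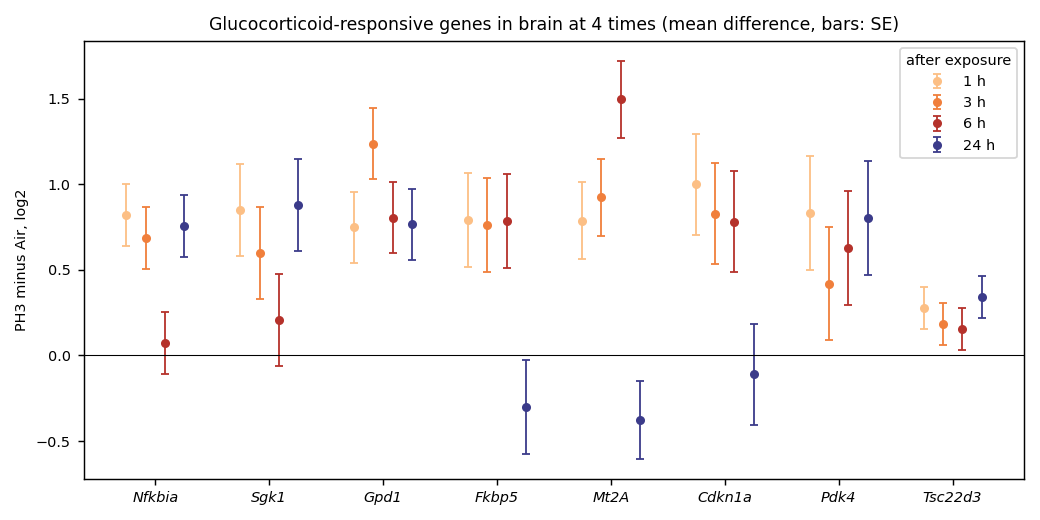
Difference of PH3 from Air in brain (log2, with bars for 1 SE, 4 arrays in each group) at 1, 3, 6 and 24 h for 8 glucocorticoid-responsive genes. Fkbp5, Mt2A and Cdkn1a are above 0 at the 3 earlier times and at -0.30, -0.38 and -0.11 at 24 h, whereas Nfkbia, Sgk1 and Gpd1 are at 0.76, 0.88 and 0.77 at 24 h.

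Kidney arrays at 24 h came from the same 4 PH3 rats and from Air rats 83, 89, 145 and 90, so the kidney and brain comparisons share animals. Lung and heart share some of them. Heart had fewer arrays at 24 h, those of PH3 rats 70, 85 and 91 and of Air rats 84 and 145. In kidney Nfkbia differed by 0.50 (adjusted p = 0.482) and Sgk1 by 0.90 (adjusted p = 0.750). In lung Nfkbia differed by 0.61 and Sgk1 by -0.24, and in heart by 0.73 and 0.30. Tob2 differed by 0.46 in kidney, 0.14 in lung and 0.29 in heart. None of these values passed.

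Genes of the enzyme that phosphine blocks differed little between PH3 and Air at 24 h. The 25 cytochrome c oxidase subunits and assembly factors had a median of -0.06. Over all 8 arrays 0 of them were higher and 1 lower (background 4.98% and 7.22%). That gene was the copper chaperone Cox17, at 10.02 to 10.39 in the PH3 rats and 10.26 to 10.45 in the Air rats, lower by 0.22 and by 0.15 without the 2 Air rats. Cox4i2, the subunit used under low oxygen, differed by -0.06 but was near the dimmest signals at a brain mean of 3.50. Cox6a2, a subunit of muscle and some neurons, differed by -0.37 and then 0.27. Of 45 genes of the other respiratory complexes 3 were higher and 0 lower (background 4.98% and 7.22%), with a median of 0.03. The complex I subunit Ndufs1, highest of these at 0.46, was at 0.14 without the 2 Air rats.

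Genes of the response to oxidative damage differed little as well. Among 18 NRF2 targets and 19 antioxidant enzymes, 0 met an unadjusted p under 0.05 in either direction and either fit. Over all genes 4.98% were higher and 7.22% lower at that mark on all 8 arrays. Hmox1, heme oxygenase, differed by -0.09 and Nqo1, a quinone reductase, by 0.16, with standard errors of 0.14 and 0.12. Catalase (Cat) differed by 0.33 ± 0.21 and mitochondrial superoxide dismutase (Sod2) by 0.13 ± 0.09. Of 17 heat shock genes 1 was higher (background 4.98%), the co-chaperone Bag3 at 0.50. Hspa1a differed by -0.15 and Hspb1 by 0.50 ± 0.25. In the integrated stress response 1 of 26 genes was higher and 0 lower (background 4.98% and 7.22%). Atf3 differed by -0.01 and Gdf15 by -0.08, but both were near the dimmest signals, at brain means of 3.64 and 4.01. Hypoxia targets had a median of -0.01, with 2 of 21 lower (background 7.22%), and the angiogenic factor Vegfa differed by 0.05.

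Of the markers of gliosis and inflammation, Gfap and Aif1 overlapped between the groups. Gfap, the astrocyte filament, read 10.93, 11.29, 11.21 and 10.66 in the PH3 rats and 11.02, 11.21, 10.70 and 10.79 in the Air rats, and Aif1, a microglial protein, was highest in PH3 rat 85 at 7.87 and at 7.17 to 7.63 in the Air rats. Their differences were 0.09 ± 0.27 and 0.04 ± 0.20. Of 19 microglia and macrophage genes, 5 had a positive difference (44.4% of all genes had), with a median of -0.13. At an unadjusted p under 0.05, 1 of them was higher and 2 were lower (background 4.98% and 7.22%). Without the 2 Air rats 0 met that mark in either direction (background 1.57% and 0.789%), with a median of 0.07. The chemokine Ccl2 and the lipocalin Lcn2 differed by 0.09 and 0.02, and by 0.17 and 0.49 without the 2 Air rats. Ccl2 was near the dimmest signals, at a brain mean of 3.76. Of 29 inflammatory genes 1 was higher (Nfkbia) and 2 were lower (background 4.98% and 7.22%). The groups were separate for Nfkbia and Il1b. The lower ones were Il1b and the prostaglandin synthase Ptgs2, at -0.63, for which rat 91 read 4.65 and the other arrays 6.52 to 7.21. Of 16 myelin genes 2 were higher (background 4.98%), Mal by 0.36 and Mog by 0.39.

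Immediate early genes, which neurons switch on with activity, were lower in 10 of 26 over all 8 arrays (background 7.22%), with a median of -0.21. This count was 2 without PH3 rat 91. Without rats 89 and 145 it was 0 (background 0.789%), with a median of -0.08. Egr4 read 6.01, 6.98, 4.93 and 6.04 against 6.84, 6.56, 7.37 and 7.46, with rat 91 lowest and rats 89 and 145 highest. Its difference went from -1.07 to -0.71 and, with all 3 left out, to -0.35. Egr2 went from -1.06 to -0.92 and -0.37, and Arc from -0.89 to -0.66 and -0.17.

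Relatives of the genes that rose differed in direction. Of 14 genes of the TOB and BTG family and its deadenylases, 3 were higher and 1 lower over all 8 arrays (background 4.98% and 7.22%). Btg1 was higher by 0.67, but by 0.19 without the 2 Air rats. The deadenylase subunit Pan3 was higher by 0.65 and then by 0.04, Btg3 was lower by 0.38 and then by 0.11, and Tob1, the closest relative of Tob2, was lower by 0.20 and 0.21. In the GDNF and neurotrophin list of 19, Ret was the only gene higher at an unadjusted p under 0.05 (background 4.98%). The Ret co-receptors Gfra1 and Gfra2 differed by -0.04 and -0.34. Among 26 voltage-gated channels 5 were higher and 3 lower over all 8 arrays (background 4.98% and 7.22%). Without the 2 Air rats 3 were higher (background 1.57%). Among them were the potassium channel Kcna1 (0.54 and 0.34) and the calcium channel Cacna1g (0.34 and 0.41). The synaptic vesicle protein Vamp1, the form used in brain stem and cord, read 11.95, 11.89, 12.49 and 11.99 against 11.55, 11.68, 11.50 and 11.20. The groups were separate, and the difference was 0.60 over all 8 arrays and 0.46 without the 2 Air rats.

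**Figure D5:**
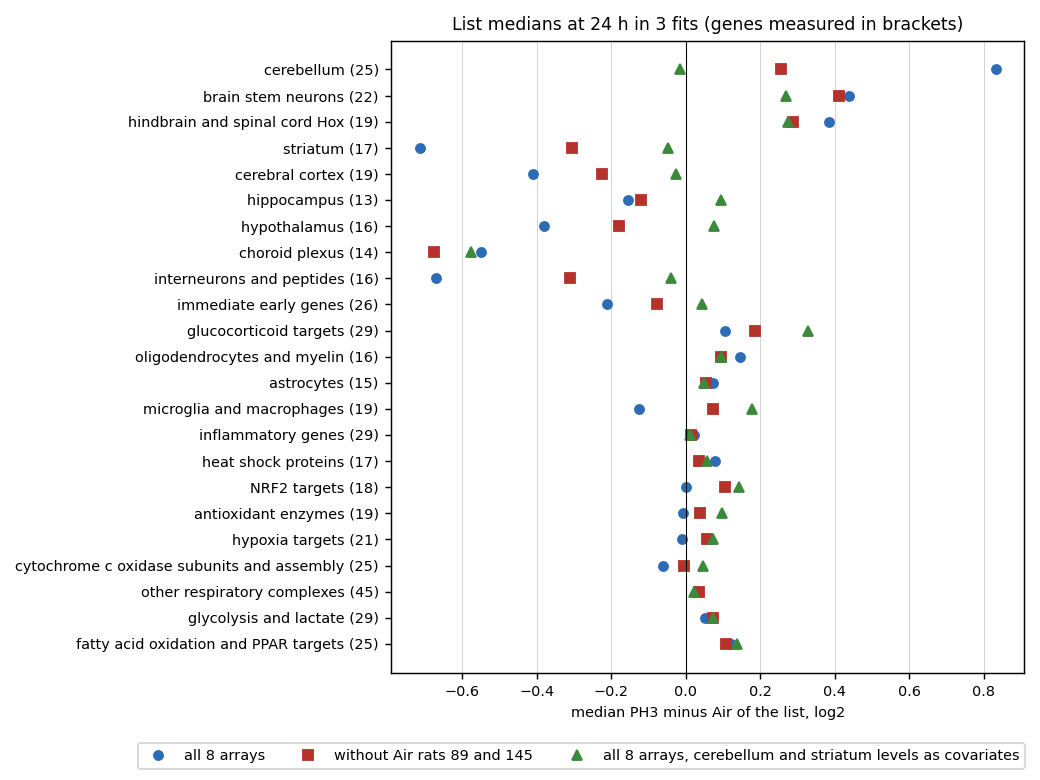
Median difference of PH3 from Air (log2, horizontal axis) of 23 gene lists in brain at 24 h over all 8 arrays (blue circles), without Air rats 89 and 145 (red squares) and with the cerebellum and striatum levels of each array as covariates (green triangles); numbers in brackets are genes measured. The cerebellum list goes from 0.83 to 0.26 and -0.02 and the striatum list from -0.71 to -0.31 and -0.05, while the Hox list goes from 0.38 to 0.29 and 0.27.

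With the mean levels of the cerebellum and striatum lists of each array as covariates, 0 genes passed (0%). The medians of those lists were then near 0 by construction, and the cortex list moved to -0.03 and the interneuron list to -0.04. The interneuron list shares Tac1, Penk, Pdyn and Pvalb with the covariate lists, so its shift was in part by construction too. The Hox median was 0.27, that of choroid plexus -0.58 and that of glucocorticoid targets 0.33, beside 0.05 over all genes. Of the glucocorticoid targets 7 were higher and 0 lower at an unadjusted p under 0.05 (background 3.89% and 1.03%). Mthfd1 had the smallest adjusted p of this fit, 0.317, at a difference of 0.58.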

How the data were processed

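The deposited log2 values had been summarised from the arrays by the authors with RMA, per the submitters' processing notes. These also list Partek and Affymetrix Expression Console, and give no version. That they are on the log2 scale was read from the values, and whether normalisation ran over all tissues or within each is not given in the sources used here. The median of a brain array was between 5.40 and 5.52. Precision is limited by the number of arrays. Of 31139 probe sets, 19069 had 1 gene symbol in the platform annotation, 572 several and 11498 none. Where a gene had several probe sets, the brightest on average in brain stood for it.

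In R 4.3.3, limma 3.58.1 fitted 1 coefficient per exposure and time over 32 brain arrays, with eBayes and a trend, and the Benjamini-Hochberg adjustment ran over 13439 genes. All adjusted p-values here come from limma, and the scripts were tested on simulated data. The fit was repeated without Air rats 89 and 145 (30 arrays), and the difference at 24 h was set against the mean difference at 1, 3 and 6 h. Alternatives covered the control arrays, regional covariates, array weights, centring, probe sets, a filter on dim genes and each rat left out. With 2 Air arrays left, the comparison without rats 89 and 145 rests on few animals.

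The groups, the 52 gene lists and the tests were chosen with earlier results of these data known. The text names the genes with the smallest p in either fit, genes with an unadjusted p under 0.01 in both fits and separate groups, a fixed panel, and list members with an unadjusted p under 0.05; other members were named after their values were seen. Promoters came from RefSeq on GRCr8. Tables and figures were made in Python 3.11.15 with pandas 2.3.3 and matplotlib 3.10.9.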

Additional observations from a re-analysis of the deposited data

Results flagged for a closer look

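In groups of 4 arrays, a value was set apart where its gap to the next array took most of the group's range (Dixon's test). Of 288 group and item pairs tested, 19 were set apart (6.60%), where chance gives about 5%.

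PH3 rat 70 stood apart for Ttr at 9.40, against 13.22 to 13.70 in the other PH3 rats. PH3 rat 91 stood apart for Fezf2 at 4.22, Vamp1 at 12.49 and Hoxb6 at 5.13. PH3 rat 85, which carried liver transcripts, stood apart for Kcnab3 at 4.91, Errfi1 at 9.09 and Cdkn1a at 7.15, and for the mean levels of the pituitary list at 4.67, the oligodendrocyte precursor list at 7.67 and the integrated stress response list at 7.72.

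Among Air rats, rat 83 stood apart for Nfkbia at 7.51, Vegfa at 8.63 and the mean level of NRF2 targets at 6.93, low in each. Air rat 84 stood apart for Glrb at 10.04, for heat shock proteins at 9.11 and for synaptic vesicle proteins at 8.61. Air rat 89 stood apart for Th at 6.57, and Air rat 145 for Ddit4 at 8.22 and the cell cycle list at 5.64. What these gaps come from was not tested.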

How the results depend on the processing

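Over all 8 arrays, where 4 genes passed, 27 passed with array weights (whose estimation stopped before its tolerance was reached), 2 with the dimmest 0.333 of genes left out, 1 with arrays centred on their medians, and 1 with the mean of all probe sets of a gene. Further counts were 0: with only the 24 h brain arrays in the fit, with Air arrays of all times as control (with or without rats 89 and 145), with the regional covariates, and without Air rats 89 and 145, alone or with PH3 rat 91, an alternative added after seeing the data, as was the control of 14 Air arrays. Leaving out each rat in turn gave 0 to 173 genes: 173 without Air rat 83, 59 without Air rat 84, 71 without PH3 rat 85, 3 without PH3 rat 149, and 0 without PH3 rats 70 or 91 or Air rats 89 or 145. In the fit without Air rats 89 and 145, leaving out each rat gave 0 to 1, with 1 gene without Air rat 83 (Apob) or Air rat 84 (RT1-CE12). For the contrast with earlier times the count was 1 with centred arrays (Mt2A) and 0 to 2 with each rat left out, 2 of them without Air rat 84 (Mt2A and Wnk1). Tob2 passed in 10 of 20 alternatives, Ret in 8 of 20, Hoxb5 in 7 and Hoxc4 in 6 of 19, and their differences stayed positive in each, at 0.59 to 0.98, 0.70 to 1.70, 0.89 to 1.78 and 0.71 to 1.52.

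Of the 92 genes given values in the text, 62 kept their sign under every alternative run. Among genes with an unadjusted p under 0.05 over all 8 arrays, signs turned for Gpd1 against Air arrays of all times (-0.063, and -0.18 without rats 89 and 145). With the regional covariates they turned for Fat2 (-0.0695), Arc (0.0394), Btg3 (0.17), Pan3 (-0.25), Pvalb (-0.10) and Ndufs1 (-0.0272). Without Air rats 89 and 145 and PH3 rat 91 they turned for Gabra6 (-0.17), Fat2 (-0.0402), Btg3 (0.0897) and Pan3 (-0.13). Ttr ran from -1.43 to 0.0007 with each rat left out, the latter without PH3 rat 70. The cause of these shifts was not tested. No paired analysis was possible because no rat number is shared between the PH3 and Air brain arrays.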
